A study of Mus musculus with 6 samples.

Results

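In a CD45-enriched cell preparation of CT26 tumors, in which 15687 of 33961 cells carried the Stroma label, 781 of 33961 cells carried the NKT label, and the 499 of them in which no *Foxp3* transcript was counted are described here. They were chosen by the label and by a count of 0 *Foxp3* UMIs in the same table, both measured values. They made up 63.9% of the NKT-labelled cells (95% interval 60.4 to 67.3%) and 1.47% of all cells (1.34 to 1.60%). The label is the authors' own and was given to each cell by its highest correlation with reference profiles of mouse immune cells, and *Foxp3* is the defining transcription factor of regulatory T cells. The 499 cells shared T cell receptor transcripts but not one T cell program. Within them lay cells with NK receptor genes, at times with *Trdc*, and mostly no coreceptor, CD4 cells with *Tnfsf8* and *Tnfsf11*, CD8 cells with killing genes, cells with the regulatory T cell genes other than *Foxp3*, and a small set with gamma delta receptor genes and *Il17a*. *Zbtb16*, the transcription factor that sets the NKT lineage, was detected in 72 of the 499 cells.

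The study treated mice with an anti-muPD-1-muGITR-L bispecific antibody, which blocks the inhibitory receptor PD-1 and carries the ligand of the costimulatory receptor GITR. CT26, a mouse colorectal carcinoma line, was grown in female Balb/c mice that were 5 to 6 weeks old when obtained, and tumors were taken 5 days after treatment with vehicle, a low dose or a high dose, 2 tumors per group. The labels give 30 mg/kg for the high dose and both 10 and 30 mg/kg for the low dose. The study's text names another dose and an isotype control for this experiment. CD45+ cells were enriched with beads and profiled in droplets by single-cell mRNA-seq, where a unique molecular identifier (UMI) marks every captured transcript so that copies made by PCR are counted once. The cells come from 4 libraries, called M1, M2, M5 and M6. Their names match no tumor or treatment group of the labels, so no treatment was compared, the libraries are not replicates of a condition, and each library's value is given on its own. Because the label was made from the same genes, every difference between cell sets below is a description, with no test.

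NKT cells are T cells that recognise lipids presented by CD1d, through a receptor with an almost fixed alpha chain, and they share receptors and effector genes with NK cells. *Zbtb16* (PLZF) gives them, and some gamma delta T cells and innate lymphoid cells, their ready-to-act state. GITR, encoded by *Tnfrsf18*, and CD40 ligand, encoded by *Cd40lg*, are members of the TNF receptor and TNF ligand families that carry costimulation by and to T cells.

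The 4 libraries held 158337797 to 315577167 UMIs, and the cells described here had a median of 3925 UMIs (range 1235 to 43221) and 1585 genes. Their median UMI count was 3545 to 4253 by library, below the 11399 to 21800.5 UMIs of all cells of those libraries. Levels are given as the summed UMIs of a cell set in CPM (the counts of each gene scaled to the total of the set), and shares of cells with a UMI after each cell was thinned to 2000 UMIs, which 443 of the 499 cells reached. Intervals are exact 95% intervals and cover counting error only. A CD3 transcript (*Cd3d*, *Cd3e* or *Cd3g*) was counted in 481 cells (96.4%), and 18 had none. Of the 499 cells, 91 held over 10% mitochondrial UMIs and 3 had a doublet score over 0.25. The barcodes of 4 cells (0.802%) occurred in a further library, and none was shared among the 499.

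Of the 4 genes used to check the label, the T cell gene *Cd3e* was common and the NKT gene *Zbtb16* sparse. *Cd3e*, which encodes the signalling chain CD3 epsilon, lies at chr9:44998740-45009627 on GRCm38. It stood at 481 CPM, and M1, M2, M5 and M6 had 465, 435, 483 and 520 CPM. Its UMIs were found in 60.7% of thinned cells (56.0 to 65.3%), against 1.52% of cells with the NK cells label, whose median depth was 5397 UMIs. The level was close in every library, and far above that in NK-labelled cells, at 9.94 CPM.

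*Zbtb16*, at chr9:48654297-48836222, reached 54.6 CPM in all, from 129 UMIs. M1, M2, M5 and M6 had 51.3, 66.0, 42.6 and 59.7 CPM. After thinning, 9.26% of cells had a UMI (6.72 to 12.3%), against 2.94% of NK-labelled cells (2.45 to 3.5%) and 0.131% of CD8 effector cells (0.0357 to 0.335%). The gene was thus above these backgrounds, and all 4 libraries lay within 42.6 to 66.0 CPM. It was not limited to these cells, since ILC-labelled cells had 11.5 CPM of *Zbtb16* and NK-labelled cells 10.1 CPM.

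The fixed alpha chain of NKT receptors could be counted only where reads from this 3' assay reached it. *Trav11*, the variable segment of that chain at chr14:53519303-53519859, had 3 UMIs in 3 of these cells. Over all 33961 cells it had 4 UMIs. The joining segment *Traj18* had no UMI. Of the beta segments paired with that chain, *Trbv13-2* had 5 UMIs and *Trbv29* had 3. These counts are too low to say which share of the cells carried an NKT receptor.

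*Cd40lg*, at chrX:57212143-57224042, had 67 UMIs in 37 cells, and its level was 28.3 CPM. Levels of 44.4, 22.8, 30.7 and 17.3 CPM were found in M1, M2, M5 and M6, and those from M1 and M6 lay furthest apart. After thinning 4.06% of cells had a UMI (2.43 to 6.35%), and none of 4218 NK-labelled cells did (at most 0.0874%). *Tnfrsf18*, at chr4:156026164-156028895, stood at 467 CPM, and M1, M2, M5 and M6 had 397, 433, 561 and 469 CPM. It was found in 54.0% of thinned cells (49.2 to 58.7%), against 28.6% of NK-labelled cells (27.2 to 30.0%). GITR transcripts were therefore common here but also present in NK-labelled cells.

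**Figure D1:**
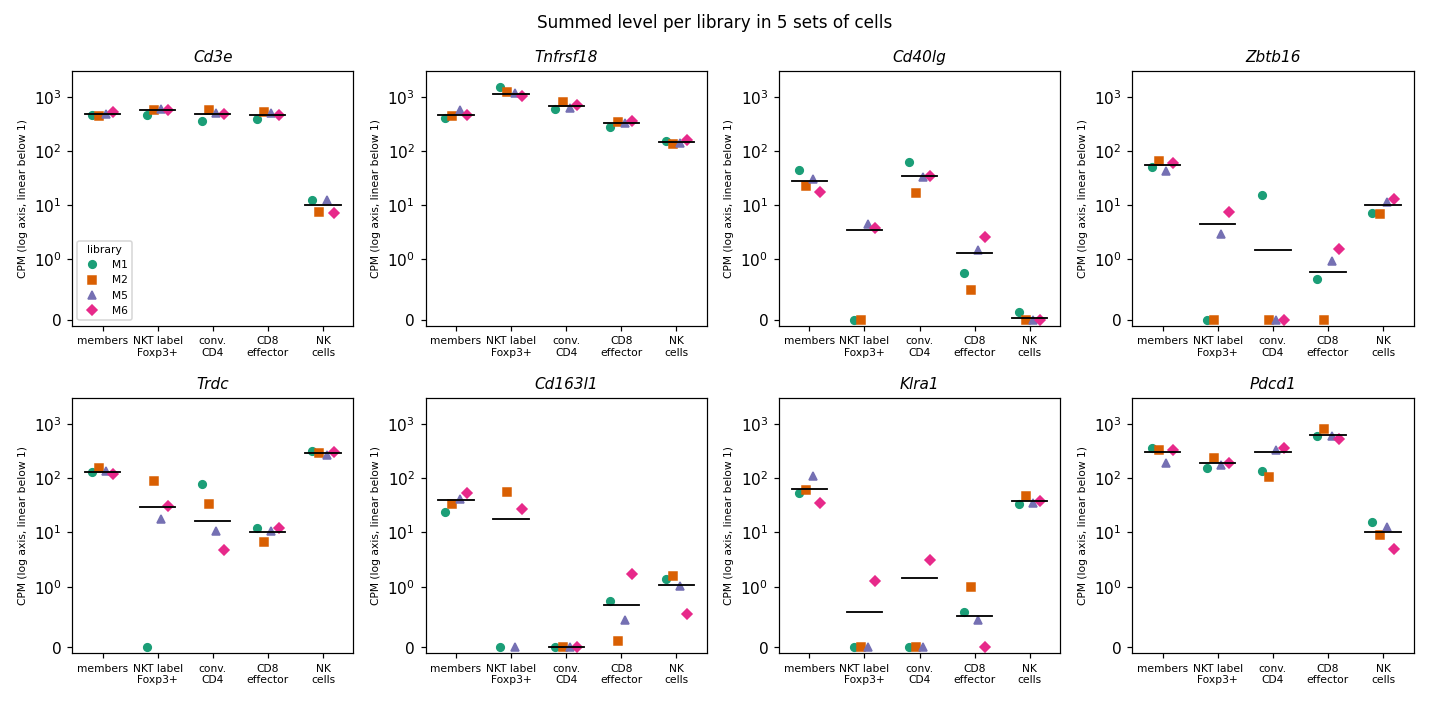
Levels of 8 genes in CPM on a log axis, with a point for each of the 4 libraries and a bar at the pooled value, in the NKT-labelled cells without *Foxp3*, those with *Foxp3*, conventional CD4 T cells, CD8 effector cells and NK-labelled cells. *Cd3e* is at 481 CPM in the cells described here and 9.94 CPM in NK-labelled cells, while *Zbtb16* is at 54.6 CPM against 4.59 CPM in NKT-labelled cells with *Foxp3*.

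The cells were found in all 4 libraries. M1 held 116 of them among 10294 cells (1.13%, 0.932 to 1.35%), and M2 held 103 among 8940 (1.15%, 0.941 to 1.40%). M5 held 126 among 7160 (1.76%, 1.47 to 2.09%), and M6 held 154 among 7567 (2.04%, 1.73 to 2.38%). The share of all cells differed between libraries beyond counting error, whereas the share of lymphocyte-labelled cells lay between 2.86 and 3.62% (3.33% of 15001 in all). Libraries differed in their content of stroma-labelled cells, of which M1, M2, M5 and M6 held 6300, 5103, 1946 and 2338.

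The share of NKT-labelled cells without *Foxp3* was 84.1, 76.9, 52.7 and 57.0% in M1, M2, M5 and M6. NKT-labelled cells with *Foxp3* numbered 22, 31, 113 and 116 in the same order.

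**Figure D2:**
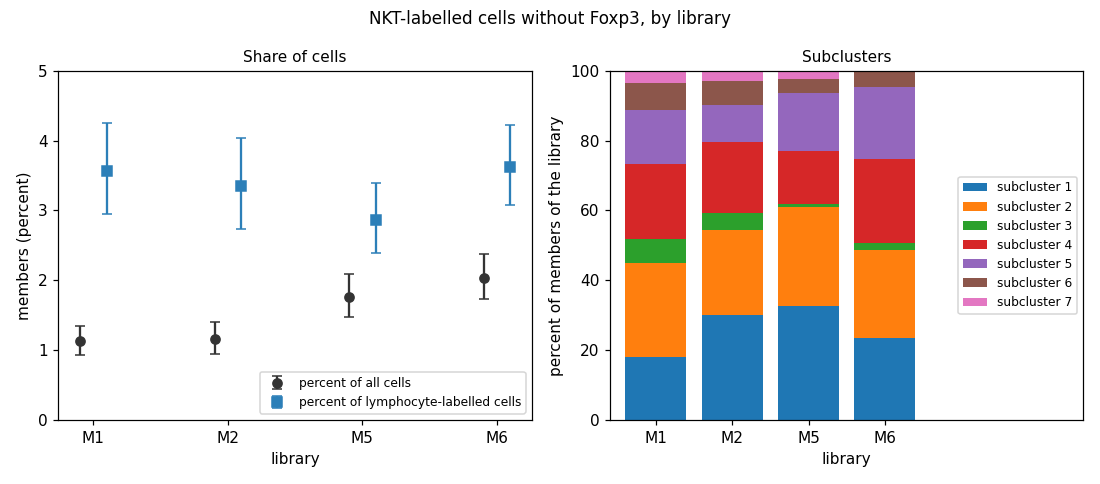
Left, percent of all cells and of lymphocyte-labelled cells that carried the NKT label without *Foxp3*, by library, with exact 95% intervals; right, percent of these cells in each of 7 subclusters, by library. The share of all cells runs from 1.13% in M1 to 2.04% in M6, and subclusters 1 to 6 occur in every library.

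By coreceptor transcripts the cells were mixed. *Cd4*, the coreceptor of helper T cells, was detected without *Cd8a* or *Cd8b1* in 123 cells (24.6%, 20.9 to 28.7%). A CD8 gene without *Cd4* was detected in 112 cells (22.4%, 18.9 to 26.4%), both in 4 cells (0.802%), and neither in 260 cells (52.1%, 47.6 to 56.6%). Cells with neither had a median of 3628.5 UMIs, against 4250 for CD4 cells and 4839.5 for CD8 cells. Depth affected this split, since at 2000 UMIs 64.1% of cells had neither. Thinning only removes transcripts, so it cannot show how many of the 260 cells had a coreceptor transcript that was missed. By library, CD4 cells made up 21.6, 13.6, 27.8 and 31.8% of those from M1, M2, M5 and M6, and cells with neither 52.6, 62.1, 54.8 and 42.9% in the same order.

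Receptor constant genes were also mixed. *Trac*, the constant gene of the alpha chain, stood at 431 CPM, and *Trbc2*, of the beta chain, at 1612 CPM, though reads may be split between *Trbc2* and its near-identical copy *Trbc1*. *Trdc*, the delta chain constant gene at chr14:54142851-54148868, stood at 131 CPM from 310 UMIs in 43 cells. Its levels were 128, 153, 135 and 118 CPM by library, in the same order. NK-labelled cells had 296 CPM of *Trdc*, so its transcript alone does not mark a gamma delta T cell. Of the 43 cells with *Trdc*, 44.2% also had *Tcrg-C1*, a gamma chain constant gene, against 4.2% of the cells without *Trdc*, and *Trac* was found in 34.9 against 71.5% (median depths 4506 and 3821.5 UMIs).

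The rule's threshold lay between no and 1 *Foxp3* UMI. The gene, at chrX:7573644-7595245, had 1 UMI in 94 NKT-labelled cells, 2 to 4 in 136 and 5 or more in 52. Cells just outside the threshold were close in depth to those inside, with a median of 3966.5 against 3925 UMIs, and their levels were nearer to those of cells with more *Foxp3*. *Ctla4*, an inhibitory receptor of regulatory T cells, was at 432 CPM with no *Foxp3* UMI, 1250 CPM with 1, 1556 CPM with 2 to 4 and 1236 CPM with 5 or more. *Ikzf2* (Helios) stood at 742, 2066, 1871 and 1698 CPM over the same steps. *Tnfrsf18* stood at 467, 1033, 1193 and 1129 CPM. These steps use the *Foxp3* counts of the rule itself, so they are a description and do not support the threshold. The levels with no *Foxp3* UMI also pool unlike cells. *Ctla4* was at 1865 CPM in 82 of them, the regulatory T-like cells described below, and at 225 CPM in the rest.

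Several genes of other lists fell away over the same single step, chosen here for that step and not standing for their lists. *Zbtb16* was at 54.6 CPM with no *Foxp3* UMI, and at 6.5, 4.9 and 2.2 CPM with 1, 2 to 4 and 5 or more. *Ly6c2*, a surface antigen of memory and effector T cells, was at 518, 97.7, 65.5 and 65.6 CPM. *Cd40lg* was at 28.3, 0, 3.6 and 6.6 CPM, and *Klra1*, an NK receptor of the Ly49 family, at 63.0, 0, 1.2 and 0 CPM. A cell with *Foxp3* but no captured *Foxp3* UMI falls under the rule as well, and the regulatory T-like cells described next lie on this side of the threshold.

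**Figure D3:**
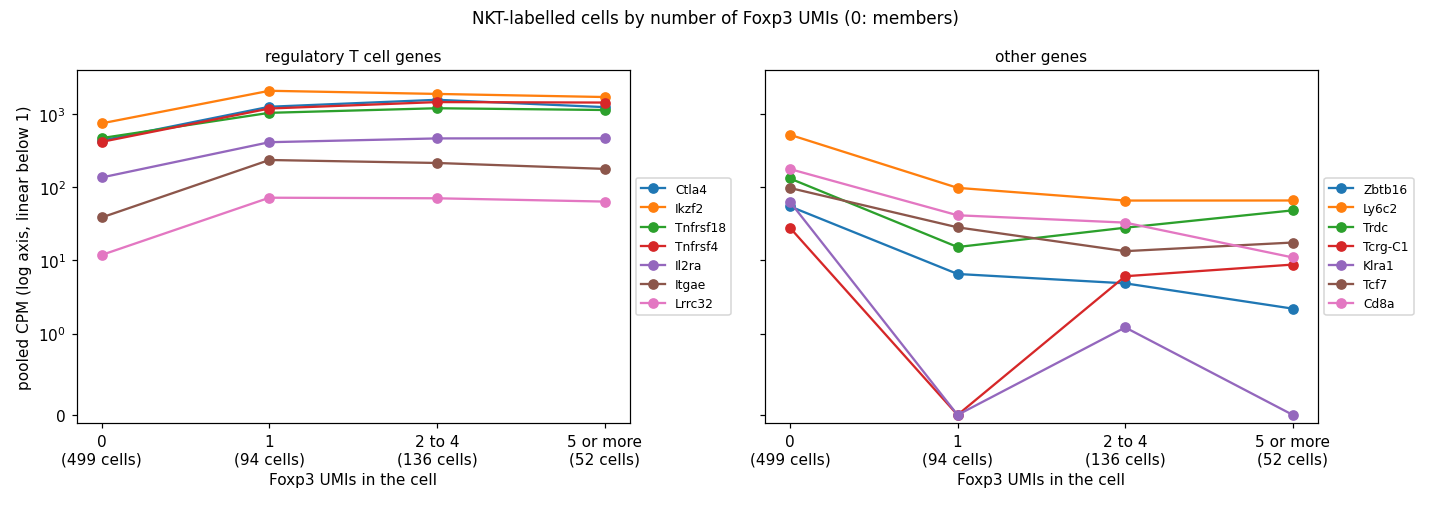
Pooled levels in CPM of regulatory T cell genes and of other genes in NKT-labelled cells with 0, 1, 2 to 4 and 5 or more *Foxp3* UMIs (499, 94, 136 and 52 cells). *Ctla4* goes from 432 to 1250 CPM and *Zbtb16* from 54.6 to 6.5 CPM between 0 and 1 UMI.

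Clustering of the 499 cells on their 1000 most variable genes gave 7 subclusters. Their leading genes chose them and are a description. At a finer resolution, subclusters 1, 4, 5 and 6 each gave most of their cells (72.9, 78.4, 98.8 and 100%) to 1 cluster made up mainly of them, and subcluster 2 was split (42.0% in its largest part). The 17 cells of subcluster 3 and the 10 of subcluster 7 fell into finer clusters of 43 and 32 cells, mostly of other cells, so they did not hold as sets of their own.

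Subcluster 1 held 129 cells, 21 of M1, 31 of M2, 41 of M5 and 36 of M6, and 83.7% of them had no coreceptor transcript. It was led by the Ly49 receptor genes *Klra1*, *Klra7*, *Klra5* and *Klra3*, by *Cd7*, a surface protein of T and NK cells, and by the signalling adaptors *Tyrobp* and *Fcer1g*. *Klra1* stood at 220 CPM here and at 3.28 CPM or below elsewhere, except for 116 CPM in the cycling subcluster 3. The Ly49 genes are near-identical copies, so reads may be split between them. *Zbtb16* was at 87.4 CPM in 34 cells, *Xcl1*, a chemokine for dendritic cells, at 363 CPM, and *Ccl5*, a chemokine of killer cells, at 2279 CPM. *Ly6c2* was at 1156 CPM in 100 of the 129 cells. Gamma delta genes were present too, as 25 of the 43 cells with *Trdc* lay here and the summed gamma delta list reached 461 CPM, against 2017 CPM in subcluster 6 and 0 to 271 CPM in the others. *Ncr1*, the activating receptor that defines NK cells, was at 95.8 CPM, against 450 CPM in NK-labelled cells, and *Cd3e* at 405 CPM. The cells thus carried NK receptor transcripts on a T cell background.

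Subcluster 2 held 131 cells, 31 of M1, 25 of M2, 36 of M5 and 39 of M6, and 55.0% had a *Cd4* UMI. It was led by *Tnfsf8* (CD30 ligand), *Tnfsf11* (RANK ligand), *Cd4*, and *S1pr1*, the receptor that T cells use to leave tissue. *Tnfsf8* was at 379 CPM, against 134 CPM or below elsewhere, and *Tnfsf11* at 364 CPM, against 132 CPM or below. It held 22 of the 37 cells with *Cd40lg*, at 59.1 CPM. *Csf2*, which encodes the growth factor GM-CSF, stood at 161 CPM in 11 cells, and *Il4*, the helper cytokine, at 24.0 CPM in 8 cells. Most cells with *Cd40lg* thus lay in this subcluster.

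Subcluster 4 held 102 cells, 25 of M1, 21 of M2, 19 of M5 and 37 of M6, and 85.3% had a UMI of a CD8 gene. It was led by *Ccl4*, a chemokine, *Cd8a*, *Cd8b1* and *Ifng*, and held *Prf1*, the pore-forming protein of killer cells, at 486 CPM in 65 cells. *Pdcd1*, which encodes PD-1, stood at 663 CPM in 81 cells, the highest level of the 7 subclusters, and *Lag3*, a further inhibitory receptor, at 375 CPM in 72 cells. Single cells weighed on it, since 594 of the 934 *Ccl4* UMIs and 178 of the 478 *Ifng* UMIs of the whole set came from 1 cell each. All 3 cells with a high doublet score were here, and its summed keratinocyte and myeloid lists reached 2411 and 1148 CPM. Their part in its values was not tested.

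Subcluster 5 held 82 cells, 18 of M1, 11 of M2, 21 of M5 and 32 of M6, and was regulatory T-like by the markers *Itgae*, *Ctla4* and *Ikzf4* among its 10 leading genes. The others were *Neb*, *Klrg1*, *Arl5a*, *Izumo1r*, *Bmyc*, *Lamc1* and *Maf*. *Ctla4* was at 1865 CPM in 77 of the 82 cells, against 641 CPM or below elsewhere, and *Ikzf2* at 2048 CPM in 79. *Il2ra*, the high-affinity chain of the IL-2 receptor, stood at 471 CPM, and *Tnfrsf18* at 1046 CPM, against 119 to 508 CPM elsewhere. *Il10*, the suppressive cytokine, was at 60.1 CPM in 11 cells. *Zbtb16*, *Cd40lg* and *Trdc* had no UMI in these 82 cells.

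Subcluster 6 held 28 cells, 9 of M1, 7 of M2, 5 of M5 and 7 of M6, and was gamma delta T-like by *Cd163l1*, *Tcrg-C1* and *Blk* among its leading genes. *Cd163l1*, a scavenger receptor of IL-17-making gamma delta T cells at chr7:140218267-140231145, was at 569 CPM in 12 cells, against 26.7 CPM or below in the other subclusters. *Trdc* stood at 780 CPM in 12 cells and *Tcrg-C1* at 298 CPM in 19 cells, and the latter may share reads with other gamma constant genes. *Il17a*, the cytokine IL-17A, was at 278 CPM in 7 of its 9 positive cells. Neither *Cd163l1* nor *Il17a* was particular to the NKT label. ILC-labelled cells held 722 *Cd163l1* UMIs in 128 cells (10.7 CPM) and 795 *Il17a* UMIs in 61 cells (11.7 CPM). *Zbtb16* was at its highest here, at 265 CPM in 20 of the 28 cells, as were *Cd40lg*, at 172 CPM in 8 cells, and *Cxcr6*, a chemokine receptor of tissue T cells, at 1032 CPM. *Tnfrsf18* was lowest here, at 119 CPM in 8 cells.

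The small subclusters 3 and 7 were led by genes of a cell state. Subcluster 3 held 17 cells (8 of M1, 5 of M2, 1 of M5 and 3 of M6) with cell cycle genes, among them *Mki67* at 566 CPM and *Stmn1* at 1503 CPM. Subcluster 7 held 10 cells (4 of M1, 3 of M2, 3 of M5 and 0 of M6) with interferon-induced genes, among them *Ifit1* at 1791 CPM and *Isg15* at 2967 CPM. Such small sets carry wide counting error.

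**Figure D4:**
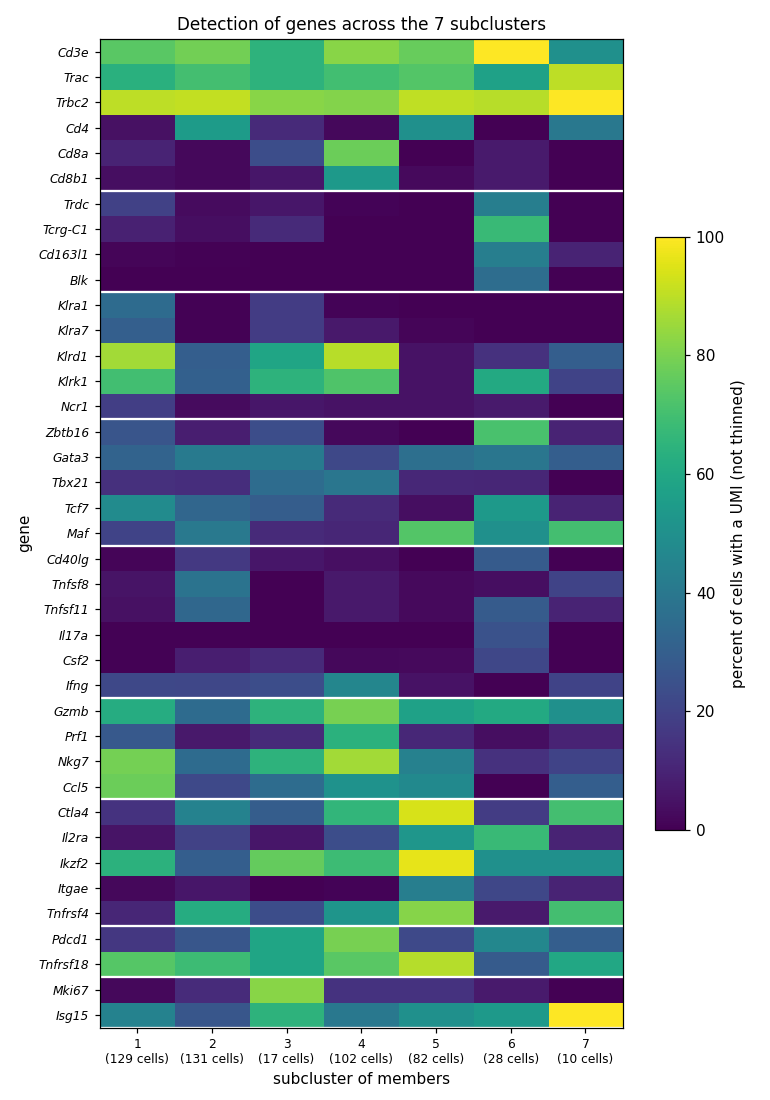
Percent of cells with a UMI of 39 genes in each of the 7 subclusters, unthinned. The Ly49 genes *Klra1* and *Klra7* were found most often in subcluster 1, *Cd4* in subclusters 2 and 5, *Cd8a* in subcluster 4, *Ctla4* and *Ikzf2* in subcluster 5, and *Cd163l1* and *Zbtb16* in subcluster 6.

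The 72 cells with *Zbtb16* differed from the other 427 in what else was counted, at median depths of 4816.5 and 3758 UMIs. *Cd4* was found in 4.2 against 29% of them and *Cd8a* in 9.7 against 22.0%, although the cells with *Zbtb16* were deeper. *Tcrg-C4*, a gamma constant gene, was found in 27.8 against 5.6%, and *Klra1* in 23.6 against 7.7%. *Tcf7*, a transcription factor of unspent T cells, was found in 62.5 against 22.5%, and *Il7r*, the IL-7 receptor, in 84.7 against 58.3%. *Ctla4* was found in 18.1 against 52.7%, and *Tnfrsf4* (OX40) in 8.3 against 52.0%. *Zbtb16* and *Cd40lg*, both used to check the label, were found together in 9 cells.

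The 37 cells with *Cd40lg* lay mainly in subclusters 2 and 6, with 22 and 8 cells. *Cd4* was found in 43.2% of them, against 24.0% of the other 462, and *Gata3*, a transcription factor of helper and NKT cells, in 64.9 against 31.2%. *Tnfsf8* was found in 37.8 against 11.9%, *Tnfsf11* in 35.1 against 11.9%, and *Ikzf2* in 32.4 against 63.0%. *Zbtb16* was found in 24.3 against 13.6%. The gamma delta genes were divided, with *Tcrg-C1* in 13.5 against 7.14% and *Tcrg-C4* in 16.2 against 8.23%, *Tcrg-C2* in 10.8% of both, and *Trdc* in 2.70 against 9.09% and *Cd163l1* in 0 against 3.46%. The median depths were 4906 and 3876.5 UMIs.

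The first comparison set was the 282 NKT-labelled cells with *Foxp3*, with a median of 5132 UMIs. A gene was counted as higher or lower where the pooled levels were at least 2-fold apart, the direction was the same in all 4 libraries, and the 2 sets together held at least 50 UMIs. By this rule 201 of 7014 genes (2.87%) were higher in the cells without *Foxp3* and 179 (2.55%) were lower. The comparison used the same step in *Foxp3* that chose the cells, and nothing is read from it beyond the levels. Lists of other cell types differed too. The B cell list summed to 43.2 against 153 CPM, the keratinocyte list to 643 against 32.7 CPM and the myeloid list to 567 against 436 CPM. The erythroid list summed to 1.27 against 4124 CPM, where M5 had 10803 CPM and M6 had 1.26 CPM. *Igkc*, a B cell receptor gene, was at 10.2 against 94.7 CPM. What these transcripts contributed was not tested.

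No gene of the regulatory T cell list was higher and 11 of the 15 counted were lower, with a median log2 ratio of -1.63, against -0.04 over all genes. *Ctla4* stood at 432 CPM against 1391 CPM (log2 ratio -1.68), and was lower in each library, with 403, 494, 438 and 414 CPM in M1, M2, M5 and M6 against 1797, 1540, 1171 and 1487 CPM. *Itgae*, an integrin chain that holds T cells in epithelium, stood at 38.5 against 209 CPM. *Itgb8*, an integrin chain that activates TGF-beta, was the lowest gene named by the fixed rule, at 10.6 against 110 CPM (log2 ratio -3.26). *Tnfrsf18* was 2.43-fold lower (2.25 to 2.62) and lower in each library, at 397, 433, 561 and 469 CPM against 1484, 1241, 1162 and 1038 CPM. *Tnfrsf4* and *Tnfrsf9* (4-1BB), costimulatory receptors of the same family, stood at 415 against 1372 CPM and 745 against 2053 CPM.

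On the other side, 4 of 5 counted genes of the gamma delta T cell list were higher (median log2 ratio 2.10), as were 7 of 14 cytotoxic effector genes (median 1.10), of which *Gzma* was lower. Of 12 NKT cell genes 4 were higher and *Izumo1r*, a folate receptor of regulatory T cells, was lower, and the median of that list was -0.21, against -0.04 over all genes. *Zbtb16* was 11.9-fold higher (5.85 to 28.1), at 54.6 against 4.59 CPM, where the cells with *Foxp3* had no UMI in M1 or M2. *Klra1* had 149 UMIs against 1, a ratio of 110 with a counting interval of 19.4 to 4367. *Cd40lg* was 8.23-fold higher (3.59 to 23.2). *Cxcr6* stood at 422 against 78.1 CPM, *Ly6c2* at 518 against 74.0 CPM and *Tcf7* at 97.3 against 18.4 CPM. *Prf1* stood at 170 against 80.9 CPM and *Xcl1* at 190 against 45.3 CPM, whereas *Gzmb*, the main granule protease, was at 1230 against 1070 CPM and was not counted as higher. *Gzmf*, a granzyme counted as higher, rested on a few cells, since 5 cells held 81.9% of its 653 UMIs. On few UMIs, single libraries moved these ratios by over 1.5 times: from a log2 ratio of 3.31 to 4.10 for *Zbtb16* without M6, from 5.35 to 4.65 for *Klra1* without M5 and to 6.27 without M6, and from 3.22 to 2.52 for *Gzmf* without M6.

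The second comparison set was 208 conventional CD4 T cells (effector or memory T cell labels with *Cd4* and a CD3 gene, and with no *Foxp3*, *Cd8a* or *Cd8b1*), with a median of 5753 UMIs. M1 and M2 contributed 22 and 24 of them, so their levels in those libraries are imprecise. The 3 comparisons share the cells described here and are not independent of each other. By the same rule 132 of 6727 genes (1.96%) were higher in the NKT-labelled cells without *Foxp3* and 54 (0.803%) were lower. All 5 counted gamma delta T cell genes were higher, 3 of them at 0 in the CD4 cells, with a median log2 ratio of 3.69 when those are set at their bound. *Tcrg-C1* and *Tcrg-C2* were at least 12.7-fold and 14.2-fold higher, *Cd163l1* at least 17.9-fold, and *Trdc* stood at 131 against 16.1 CPM. The log2 ratio of *Trdc* was 2.95, with 3.64 without M1 and 2.34 without M6, and that of *Tcrg-C4* was 3.69, against 2 UMIs in CD4 cells, both in M6, and 5.35 without that library.

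Of 12 counted NKT cell genes, only *Zbtb16* and *Klra1* were higher than in CD4 cells and *Sh2d1a* was lower. The median log2 ratio of that list was -0.03, against 0.03 over all genes. None of 9 counted NK cell genes was higher or lower (median 0.65). *Zbtb16* was 37.2-fold higher than in CD4 cells (10.1 to 310), which had 2 UMIs in 1 cell of M1 and none without that library. That cell also held 10 or more UMIs of the myeloid or keratinocyte list. Without M6 the log2 ratio of *Zbtb16* was 3.82 in place of 4.49. *Klra1* had 149 UMIs against 2, a ratio of 42.9 (11.7 to 358), and its log2 ratio of 4.70 became 3.89 without M5 and 6.27 without M6, where both UMIs lay. *Xcl1* stood at 190 against 7.34 CPM (log2 ratio 4.51, and 3.87 without M6), and *Gzmb* at 1230 against 504 CPM, and these 2 with *Gzmf* were the 3 of 15 cytotoxic genes counted as higher. *Ikzf2* was the 1 of 12 regulatory T cell genes counted as higher, at 742 against 322 CPM.

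The helper ligands went the other way. *Tnfsf8* stood at 99.0 against 363 CPM, with 71.8, 118, 101 and 108 CPM in M1, M2, M5 and M6 against 432, 386, 310 and 385 CPM. *Tnfsf11* stood at 103 against 379 CPM. With *Cd200*, an inhibitory ligand, they were the 3 of 14 CD4 helper genes counted as lower, and none was higher. Of 8 counted genes of the myeloid list 1 was lower, the monocyte receptor gene *Cd14*, at 11 against 47.7 CPM. The summed myeloid list was 345, 785, 692 and 515 CPM in M1, M2, M5 and M6, against 1737, 912, 910 and 522 CPM in CD4 cells, so the sets differed most in M1 and hardly in M6. A few cells weighed on these sums, since 3 of the cells described here held 585 of the 673 UMIs of *Apoe*, a gene of the list. *Il1b*, an inflammatory cytokine gene of myeloid cells and the lowest gene named against CD4 cells, stood at 34.3 against 282 CPM (log2 ratio -3.0, and -3.81 without M6). The keratinocyte list went the other way in its sum, at 643 against 33.0 CPM (22.2 against 31.4 CPM in M1), and its gene *Sfn* was counted as higher. Of 5 counted stroma and CT26 genes *Dcn* and *Cald1* were higher, while that list summed to 1382 against 1705 CPM. The part of all these transcripts in the comparison was not tested. *Cd40lg* was at a ratio of 0.805 (0.547 to 1.19), so no difference was detectable at this depth. *Tnfrsf18* was 1.42-fold lower (1.29 to 1.55) and not counted, and in M5 it stood at 561 against 607 CPM.

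Of 14 counted genes induced by T cell receptor signals, 3 were higher than in CD4 cells and none lower, with a median log2 ratio of 0.75, against 0.03 over all genes. These were *Nr4a2*, at 344 against 157 CPM, *Egr1*, at 197 against 77.8 CPM, and *Fos*, at 411 against 113 CPM, all early transcription factors. The list is not particular to T cells here, since its summed level was 6433 CPM in Myeloid-labelled and 4975 CPM in Stroma-labelled cells, against 6338 CPM in the cells described here and 4368 CPM in CD4 cells. *Nr4a2* was 421, 369, 189 and 390 CPM in M1, M2, M5 and M6, against 157, 164, 164 and 150 CPM, and in M5 the difference was small.

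The third comparison set was 3117 CD8 effector cells (the effector T cell label with a CD8 gene and no *Cd4*), with a median of 9938 UMIs. By the same rule 458 of 11620 genes (3.94%) were higher in the NKT-labelled cells without *Foxp3* and 822 (7.07%) were lower. Of 16 proliferation genes 13 were lower and none higher, with *Mki67*, a marker of dividing cells, at 66.0 against 200 CPM. Markers of other cell types moved in both directions. Lower were 6 of 9 counted genes of the stroma and CT26 list (summed level 1144 to 1672 CPM by library, against 2667 to 3400 CPM in CD8 cells) and 6 of 12 of the myeloid list (345 to 785 against 519 to 827 CPM). The B cell list had the opposite direction in its sum, at 43.2 against 14.2 CPM, and in each library. The keratinocyte list summed to 643 against 86.6 CPM, but to 22.2 against 71.6 CPM in M1. Its genes *Krt5*, *Krt14* and *Krt15* had UMIs in only 4, 6 and 5 of the cells described here. The mast cell list summed to 66.0 against 31.6 CPM, mainly through M1, at 178 against 18.3 CPM, and was lower in M2 and M5. Of the genes of these lists *Ighm* was counted as higher and *Krt1* and *Mcpt8* as lower. Stroma-labelled cells had 3682 CPM of the proliferation list, against 1888 CPM in the cells described here and 4086 CPM in CD8 cells, and the part of such transcripts in the difference was not tested. Of 15 cytotoxic genes 9 were lower and none higher. *Prf1* stood at 170 against 860 CPM, with 195, 248, 123 and 141 CPM in M1, M2, M5 and M6. *Gzmb* stood at 1230 against 2629 CPM, and its library levels of 1733, 1273, 1153 and 874 CPM each lay below those of CD8 cells, at 1995, 2538, 3312 and 2443 CPM. *Xcl1* was level, at 190 against 193 CPM, and was above the CD8 level in M1, M2 and M5 and below it in M6.

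Genes of naive and memory T cells were higher than in CD8 effector cells in 10 of 16 counted, and none was lower (median log2 ratio 1.45, against -0.03 over all genes). *S1pr1* stood at 69.4 against 4.77 CPM, at 70.1, 75.1, 71.6 and 63.7 CPM in M1, M2, M5 and M6 against 1.25, 2.09, 6.89 and 8.76 CPM. The libraries did not overlap between the sets for this gene, and the share of all genes for which this held was not counted. *Tcf7* stood at 97.3 against 12.8 CPM and *Il7r* at 421 against 136 CPM. *Cd40lg* was 21.6-fold higher (14.9 to 31.3), *Zbtb16* 68.4-fold higher (46.5 to 103), and *Tnfrsf25* (DR3), a costimulatory receptor, stood at 38.9 against 1.5 CPM.

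Of 11 counted inhibitory receptor genes, 5 were lower than in CD8 effector cells and *Cd5*, a brake on receptor signalling, was higher. *Lag3* stood at 173 against 428 CPM, *Havcr2* (TIM-3) at 29.6 against 129 CPM and *Pdcd1*, at chr1:94038305-94052553, at 303 against 629 CPM. *Pdcd1* was 2.08-fold lower (1.93 to 2.24), with 357, 337, 191 and 328 CPM in M1, M2, M5 and M6 against 591, 801, 590 and 535 CPM. The libraries of the sets did not overlap, and here too the share of all such genes was not counted. Against CD4 cells its ratio was 0.980 (0.868 to 1.11) and the direction differed among libraries, as CD4 cells had 134, 107, 331 and 366 CPM.

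**Figure D5:**
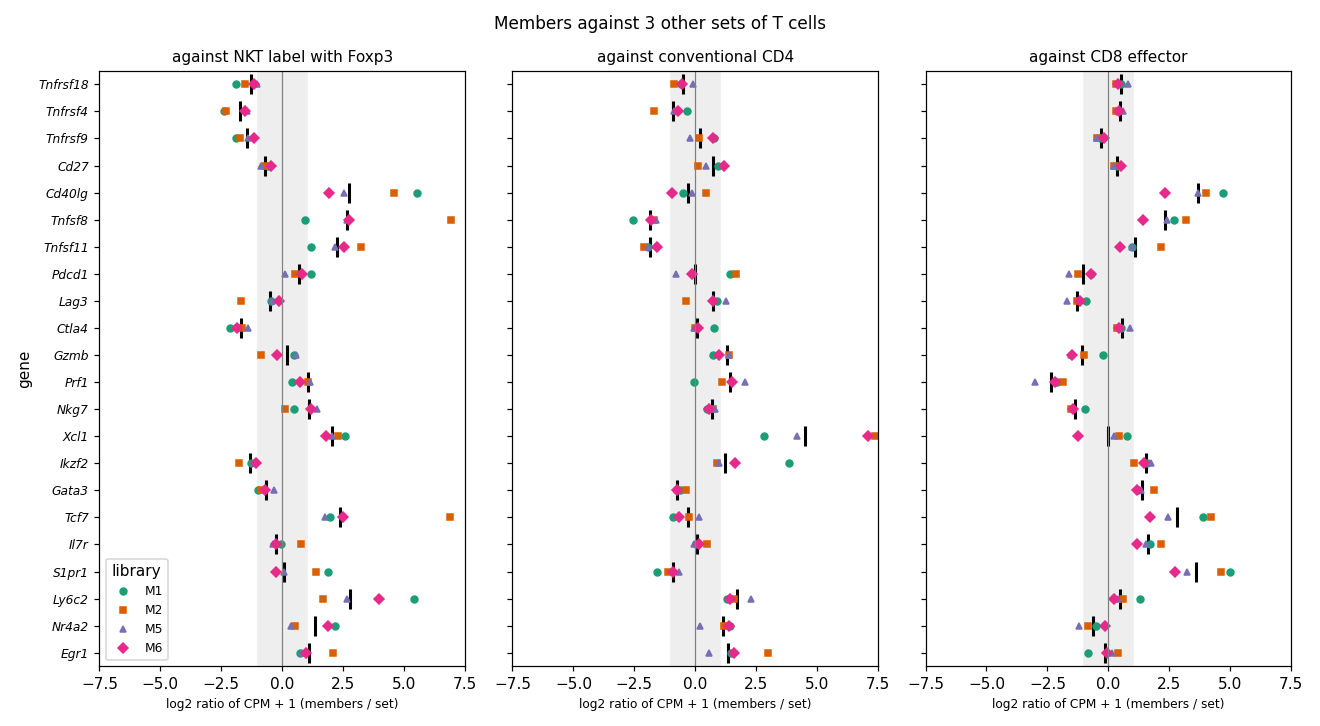
Log2 ratios of CPM plus 1 for 22 genes in NKT-labelled cells without *Foxp3* against those with *Foxp3*, conventional CD4 T cells and CD8 effector cells; bars are pooled values, points are libraries, and the grey band is less than 2-fold. Pooled values lie above the band for *Ly6c2* against NKT-labelled cells with *Foxp3* (2.79), *Xcl1* against CD4 cells (4.51) and *S1pr1* against CD8 effector cells (3.61). *Tnfsf11* lies below the band against CD4 cells (-1.87).

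Both targets of the bispecific were thus transcribed in the set. A UMI of *Pdcd1* and of *Tnfrsf18* was counted in the same cell in 135 of the 499 cells (27.1%, 23.2 to 31.2%), and M1, M2, M5 and M6 had 27.6, 25.2, 24.6 and 29.9%. Without thinning, the share was 36.9% of the NKT-labelled cells with *Foxp3*, 41.8% of CD4 cells, and 83.3% of CD8 effector cells. The first 2 varied by library: in M1 the share was 18.2% of 22 NKT-labelled cells with *Foxp3* and 13.6% of 22 CD4 cells. In M2 it was 41.9 and 25.0%, in M5 34.5 and 39.1%, and in M6 41.4 and 54.8%. Under other labels it was 2.21% of NK-labelled, 17.6% of ILC-labelled and 14.6% of Myeloid-labelled cells, and the ILC and Myeloid labels also held T cell receptor and CD3 transcripts, at a summed 2824 and 1411 CPM. Those 6 sets were deeper, at medians of 5132, 5753, 9938, 5397, 9773.5 and 8027 UMIs, so these shares cannot be set against each other directly. The 93 cells of the T cells label without *Foxp3* had a like depth, with a median of 3912 UMIs, and the share there was 25.8% (17.3 to 35.9%), an interval that holds the 27.1% found here. Among the 135 cells, *Cd8a* was found in 46.7% (63 cells), against 10.4% (38 cells) of the other 364, at median depths of 5128 and 3654 UMIs. Most cells with a *Cd8a* UMI thus held UMIs of both targets. The highest levels of the targets lay in different subclusters. *Pdcd1* was highest in the *Cd8a* subcluster 4, at 663 CPM. *Tnfrsf18* was highest in the regulatory T-like subcluster 5, at 1046 CPM, where *Pdcd1* was at 120 CPM.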

How the data were processed

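The authors counted UMIs with Cell Ranger 3.0.2 against GRCm38, dropped cells of few UMIs, labelled cells by correlation with ImmGen profiles and deposited the raw counts of UMIs for 33961 cells and 31053 genes, with total UMI counts, genes per cell, a library name and a label for each cell. They named no doublet removal or correction for free RNA. No row of the table lacks a gene name, and no column was left out. Cells were chosen by the NKT label and 0 *Foxp3* UMIs. The cells and gene lists were chosen with earlier results of these data known. UMIs were summed over cells in CPM, and log2 ratios used a pseudocount of 1 CPM. A fold with an interval is the ratio of the summed CPM, and its exact interval covers counting error only. A gene with 0 UMIs in a set was given a bound of 3 UMIs over the set. Genes were counted at 2-fold with 50 UMIs, leaving out those that chose a set. A gene sparse in the comparison set can reach this minimum only through the cells described here. Named genes are those of the lists, the 12 highest and 12 lowest per comparison with a UMI in 5% of the higher set, and 10 leading genes per subcluster (20% of its cells). Cells were thinned to 2000 UMIs, scored for doublets with scrublet (expected rate 0.06) and clustered by the Leiden method (15 components, 15 neighbours, resolution 0.5). The thinning, the ratios and the counting rule were tested on simulated data. *Scart2* and *Cd244a* were not found in the table. Tools were Python 3.11.15, numpy 2.4.6, scipy 1.17.1, pandas 2.3.3, scanpy 1.11.5 and igraph 0.11.9. Positions are from GENCODE M21. Alternatives changed the thinning, the minimum UMIs, the pseudocount, the cells kept and the libraries. For 1 gene of the lists, no value is reported here.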

Additional observations from a re-analysis of the deposited data

How the results depend on the processing

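No paired analysis was possible because the replicate numbers of the labels belong to tumors that no library could be matched to, and no result comes from a test. All cell sets have cells in each of the 4 libraries, and ratios within each library were used in the counting rule. Of 193 alternatives to 19 main results, 161 left the result as it was and 32 moved it. Shares and counts of genes have no direction to reverse, and a reversal was scored only for ratios at least 2-fold apart. The log2 ratio of *Cd3e* against CD4 cells, near level, ran from -0.063 to 0.069 on leaving out each library. Of 576 alternatives to 72 named genes, 41 moved and none reversed. These genes were picked for the same direction in every library, so the lack of reversals is no support for them. Depth set the shares of cells with a UMI: with 1000 UMIs, 4000 UMIs (242 cells) or no thinning, the share was 37.1, 87.2 and 78.2% for *Cd3e*, 2.00, 7.02 and 7.41% for *Cd40lg*, 36.3, 74.4 and 71.7% for *Tnfrsf18*, and 3.01, 16.5 and 14.4% for *Zbtb16*. The coreceptor split was not thinned. At 1000 UMIs it was 9.02% *Cd4* only, 15.4% CD8 only, 0% both and 75.6% neither, and at 2000 UMIs 18.7, 16.9 and 64.1% for the first, second and last. Without cells over 10% mitochondrial UMIs 18.4% were CD8 only. The share of all cells was 3.33% of lymphocyte-labelled cells and, without cells with 10 or more myeloid or keratinocyte UMIs, an alternative chosen after seeing the data, 1.68%. Leaving out each library gave 1.31 to 1.62% of all cells, 56.5 to 63.4% with *Cd3e*, 3.35 to 4.88% with *Cd40lg*, 53.1 to 55.2% with *Tnfrsf18*, 8.50 to 10.4% with *Zbtb16*, 21.4 to 27.5% *Cd4* only, 49.5 to 56.2% neither, and a *Tnfrsf18* log2 ratio against CD4 cells of -0.66 (without M5) to -0.45. The minimum UMIs moved the counts of genes. With 10 and 200 UMIs, 453 and 69 were higher than in NKT-labelled cells with *Foxp3*, and 97 were lower with 200. Against CD4 cells 371 and 45 were higher, and 100 and 18 lower.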

Other observations

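Gamma delta receptor genes were also seen outside the constant regions. *Trgv2*, a gamma variable segment, had 24 UMIs in 22 of the 499 cells, out of 427 UMIs in all cells. *Tcrg-V1* had 6 of its 33 UMIs here, *Tcrg-V4* 6 of 12, and *Tcrg-V6* 2 of 21. *Trdv4*, a delta variable segment, had 11 of its 888 UMIs here. Apart from *Tcrg-V4*, most UMIs of these segments thus lay in other cells. Of the cytokines, *Il17a* and *Il4* lay in few cells. *Il17a* had 44 UMIs in 9 cells, of which 66.7% had *Zbtb16*, 55.6% *Trdc* and 77.8% *Il2ra*, while none had *Cd4* or *Cd8a*. M1, M2, M5 and M6 had 12, 29.6, 27.3 and 10.6 CPM, but the 16 UMIs in M5 and the 8 in M6 came from 1 cell each. *Il4* had 19 UMIs in 11 cells. *Ifng*, in 113 cells, stood at 202 CPM, and at 413 CPM in M5 against 101 to 155 CPM in the other libraries, but 178 of its 242 UMIs in M5 came from 1 cell.

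Transcripts of other cell types were present. The summed keratinocyte list ranged from 22.2 to 1516 CPM by library, and *Krt5* had 299 UMIs in 4 cells, *Krt14* 447 in 6 and *Krt15* 420 in 5. The myeloid list summed to 345 to 785 CPM (380 CPM in NK-labelled cells), the stroma and CT26 list to 1144 to 1672 CPM (2603 CPM in NK-labelled cells) and the mast cell list to 13.7 to 178 CPM. The B cell list summed to 43.2 CPM over all libraries. The dendritic cell list summed to 10.6 CPM with 5 of 8 genes at 0, and the erythroid list to 1.27 CPM with 4 of 5 at 0. At least 10 UMIs of the myeloid list were counted in 12 cells and of the keratinocyte list in 3 cells. Their part in the results was not tested beyond leaving those cells out.

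Further lists were counted by the same rule. The shares over all genes were 2.87% higher and 2.55% lower against NKT-labelled cells with *Foxp3*, 1.96 and 0.803% against CD4 cells, and 3.94 and 7.07% against CD8 effector cells. Of 16 interferon response genes, *Ly6a* was lower than in NKT-labelled cells with *Foxp3*, none was counted against CD4 cells, and *Ifit1*, *Ifit3* and *Igtp* were higher than in CD8 effector cells. Of 10 chemokine receptor genes counted against CD8 effector cells, 5 were higher and *Cx3cr1* was lower, at 5.50 against 33.9 CPM. Of 8 counted against NKT-labelled cells with *Foxp3*, *Cxcr6* was higher, *Ccr2* and *Ccr4*, which were among the 5, were lower, and the median log2 ratio was -0.89. None of 8 was counted against CD4 cells. Of 14 genes of the T cell receptor and CD3 complex, *Cd2*, *Cd5* and *Cd28* were higher than in CD8 effector cells and none was lower, whereas *Cd2* and *Cd5* were lower than in NKT-labelled cells with *Foxp3*, and *Cd5* was the 1 gene of 11 counted as lower than in CD4 cells (median log2 ratio of the list -0.41). Of 17 counted helper lineage factors, *Zbtb16* and *Tcf7* were higher than in NKT-labelled cells with *Foxp3*, and *Tox*, *Maf*, *Ikzf2*, *Batf* and *Prdm1* were lower. Against CD8 effector cells, 6 of 17 were higher (*Gata3*, *Rora*, *Zbtb16*, *Maf*, *Ikzf2* and *Tcf7*) and *Eomes* was lower.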
